A study of Glycine max with 6 samples.

Results

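Pseudo-response regulators (PRRs) are repressors of transcription in the plant circadian clock. The 7 soybean genes described here carry a protein description of two-component response regulator-like PRR95 (4 genes), PRR73 (2 genes) or PRR37 (1 gene), out of 36827 genes listed in at least 1 library. They were chosen from the group of genes with these descriptions when their lower level in the libraries labelled GmRAV1-ox was already known. Their levels, fold changes, intervals and counts of calls are therefore given as a description, with no p-value as a test of them. A total of 9 genes carry such a description, and the 2 left off the list, both PRR95-like, are set beside the 7 below.

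The series holds 6 RNA-seq libraries of trifoliolate leaves of soybean (Glycine max) taken 30 days after germination. The labels give 3 libraries as DN50, with the genotype wild type, and 3 as GmRAV1-ox, with the genotype GmRAV1. They do not spell out the suffix, and name no promoter, transgenic line or hour of harvest. Clock transcripts change through the day, so without that hour a difference between genotypes and one between harvest hours cannot be told apart in any of the clock genes below. Nothing says that the replicates came from separate plants, so a p-value here speaks of the spread among the libraries, which may be technical.

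PRR proteins carry a receiver-like domain that lacks the conserved phosphate-accepting residue, and a CCT domain through which they bind DNA. In Arabidopsis, PRR9, PRR7, PRR5 and TOC1 are expressed one after another from morning to evening, and they repress the morning MYB genes CCA1 and LHY, which in turn act on the PRR genes. The names PRR95, PRR73 and PRR37 come from rice. PRR95 is related to the Arabidopsis PRR5 and PRR9 pair, and PRR73 and PRR37 to the PRR3 and PRR7 pair. In soybean, genes of the PRR3 and PRR7 pair are known for their part in flowering time under long days. The deposited KEGG orthology gave pseudo-response regulator 5 first for the 4 PRR95-like genes and pseudo-response regulator 7 first for the other 3.

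Each library held 7208496 to 7684540 estimated counts. Levels are given as CPM (counts scaled to a common library size, with library factors), or as FPKM where genes are compared with each other. The 4 genes matched as RAV family, the family of the gene in the label, had a summed CPM of 48.8 to 88.3 in DN50 and 47.2 to 77.2 in GmRAV1-ox, so the libraries labelled GmRAV1-ox were not set apart by it. Of the 3 tested RAV genes, 0 passed the threshold by edgeR, DESeq2 or limma and 0 had an unadjusted edgeR p under 0.05, with log2 fold changes from -0.26 to -0.04. The fourth, Glyma20g32730.1, named after its values were seen, was too low to be tested with all 6 libraries, at 0.154, 0.569 and 0.396 CPM in DN50 and 1.54, 2.75 and 0.289 CPM in GmRAV1-ox. It was called higher without GmRAV1-ox replicate 3 (edgeR adjusted p = 0.0273). All 37 matched leaf mesophyll genes were above 0 in at least 1 library, and their summed FPKM was 110387 to 154548 in DN50 and 108055 to 149962 in GmRAV1-ox. A seed storage protein gene was at 0.13 FPKM or less, and the 13 genes matched by the nodule words, led by a nodulin-26 and a leghemoglobin reductase-like gene, summed to 1391 to 2114 and 1404 to 2035 FPKM. The first principal component (62.6% of the variance) placed 1 library of each group, DN50 replicate 2 (-10.3) and GmRAV1-ox replicate 3 (-16.5), between the other DN50 libraries (-64.0 and -81.0) and the other GmRAV1-ox libraries (71.6 and 100.1). The calls below are also given without each of these 2 libraries.

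The 7 PRR genes stood lower in all 3 GmRAV1-ox libraries than in all 3 DN50 libraries. The fold difference was 1.89 to 4.05, and it was larger in the estimate for 2 PRR95-like genes than for the other 5. In bulk leaf RNA, fewer cells that express a gene and less of its RNA per cell cannot be told apart.

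Among the PRR95-like genes, Glyma19g44970.1 had the largest fold difference. It stood at 42.3, 33.0 and 53.2 CPM in DN50 replicates 1, 2 and 3, and at 11.8, 13.9 and 5.92 CPM in GmRAV1-ox replicates 1, 2 and 3. The lowest DN50 library was well above the highest GmRAV1-ox library, and GmRAV1-ox replicate 3 was the lowest of the 6. The means were 42.8 ± 10.1 and 10.5 ± 4.13 CPM (SD, n = 3), which is 4.05-fold lower (95% interval 2.41 to 6.79) and a log2 fold change of -2.02 (SE 0.32). This gene rests on 232 to 403 estimated counts per library in DN50 and 41 to 116 in GmRAV1-ox.

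Glyma07g05530.1 stood at 106, 61.3 and 92.5 CPM in DN50 and at 34.1, 35.0 and 24.1 CPM in GmRAV1-ox. DN50 replicate 2 was nearest to the GmRAV1-ox libraries, and GmRAV1-ox replicate 3 was again the lowest. The means were 86.7 ± 23.0 and 31.1 ± 6.07 CPM, 2.78-fold lower (1.86 to 4.16), with a log2 fold change of -1.48 (SE 0.25).

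Glyma06g14150.1 is the most abundant of the 4 PRR95-like genes per length. It stood at 134, 118 and 175 CPM in DN50 and 78.8, 62.0 and 52.7 CPM in GmRAV1-ox, and the groups did not overlap. The difference was 2.21-fold (1.53 to 3.18), with a log2 fold change of -1.14 (SE 0.23). Glyma16g02050.1 differed from these 3 genes in its order of GmRAV1-ox libraries. It stood at 61.0, 46.4 and 62.8 CPM in DN50 and at 25.02, 30.5 and 28.2 CPM in GmRAV1-ox, where replicate 1 and not replicate 3 was lowest. Its difference was 2.03-fold (1.53 to 2.70), with a log2 fold change of -1.02 (SE 0.18).

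The PRR73-like and PRR37-like genes stood lower by about the same factor as each other. The PRR73-like gene Glyma11g15580.1 stood at 57.4, 38.0 and 52.5 CPM in DN50 and at 20.1, 22.6 and 26.3 CPM in GmRAV1-ox. That is 2.14-fold lower (1.55 to 2.96), with a log2 fold change of -1.10 (SE 0.20). The other PRR73-like gene, Glyma11g15560.1, stood at 114, 88.5 and 107 CPM in DN50 and at 50.04, 48.9 and 65.0 CPM in GmRAV1-ox. That is 1.89-fold lower (1.39 to 2.57), with a log2 fold change of -0.92 (SE 0.19). In both genes GmRAV1-ox replicate 3 was the highest library of its group, the reverse of its place in 3 of the PRR95-like genes. The 2 PRR73-like models share their best protein match, so the authors' counting may have split reads of 1 gene between them. Their FPKM ratio, Glyma11g15560.1 over Glyma11g15580.1, lay between 1.01 and 1.26 in the 6 libraries, and their summed counts gave a log2 fold change of -0.97.

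The PRR37-like gene Glyma12g07860.1 stood at 132, 103 and 134 CPM in DN50 and at 61.1, 52.3 and 71.3 CPM in GmRAV1-ox. The groups did not overlap, and GmRAV1-ox replicate 3 was again the highest of its group. The means were 123 ± 17.7 and 61.6 ± 9.54 CPM, 2.00-fold lower (1.46 to 2.75), with a log2 fold change of -1.0 (SE 0.20).

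**Figure D1:**
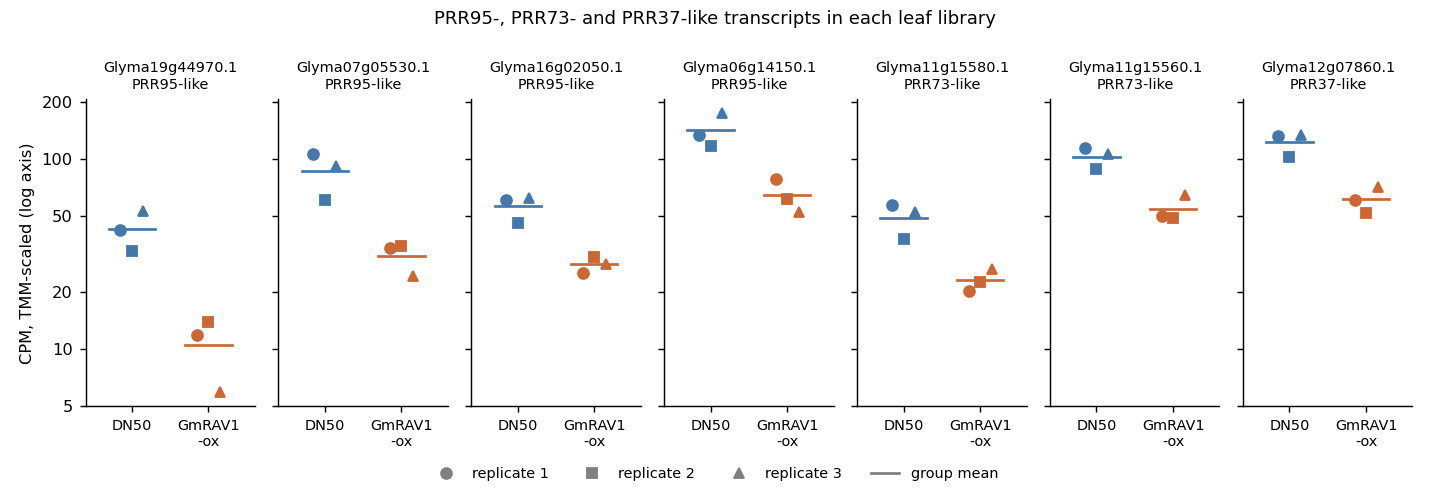
TMM-scaled CPM on a log axis for each of the 7 PRR genes, with 1 point per library (3 DN50 and 3 GmRAV1-ox) and the group mean. In each of the 7 panels the 3 GmRAV1-ox libraries lie below the 3 DN50 libraries, with the widest gap for Glyma19g44970.1 (4.05-fold) and the narrowest for Glyma11g15560.1 (1.89-fold).

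All 7 passed the count filter, and in 7 of 7 the 3 GmRAV1-ox libraries lay below the 3 DN50 libraries, as for 13.1% of the 26272 tested genes. Of the 7, 2 fell at the threshold of an adjusted p of 0.05 in the edgeR fit over all genes, Glyma19g44970.1 and Glyma07g05530.1, where 0.579% of tested genes were called lower. Since the list was chosen with this contrast known, nothing is read from these shares. The median log2 fold change of the 7 was -1.10, against 0.01 over all tested genes. In the whole table, 0.921% of tested genes had a log2 fold change as low as that of Glyma19g44970.1, and 6.67% had one as low as that of Glyma11g15560.1.

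The count of called PRR genes turned on single libraries. Without GmRAV1-ox replicate 3, all 7 were called lower, where 9.66% of tested genes were. Without DN50 replicate 2, 3 were called, where 0.545% of tested genes were called lower. These were Glyma07g05530.1, Glyma16g02050.1 and Glyma11g15580.1, so Glyma19g44970.1 lost its call there. Leaving out any 1 of the other 4 libraries gave 0 called PRR genes and 0 called genes in the whole table by edgeR, although 3290 to 3888 genes, the 7 among them, had an unadjusted p under 0.05. DESeq2 on all 6 libraries called 7 of 7 lower, where it called 3.96% of tested genes lower. Limma on FPKM called 0, where it called 121 or 89 of 26272 tested genes lower by pseudocount. With groups that do not overlap, leaving out a library cannot turn the sign. The size of the log2 fold change with 1 library left out ranged from -2.26 to -1.76 for Glyma19g44970.1 and from -1.08 to -0.84 for Glyma11g15560.1. Without library factors these 2 genes stood at -1.81 and -0.74. The estimates nearest to 0 under any alternative were -1.69 and -0.73, in limma on log2(FPKM + 1).

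The PRR95-like genes and the PRR73-like and PRR37-like genes took different places in GmRAV1-ox replicate 3. Relative to each gene's DN50 mean, the PRR95-like median was -1.23 (log2) in GmRAV1-ox replicate 1, -1.22 in replicate 2 and -1.60 in replicate 3. For the 3 PRR73-like and PRR37-like genes it was -1.03, -1.09 and -0.77. Replicate 3 was thus the lowest GmRAV1-ox library for the first type, except in Glyma16g02050.1, and the highest for the second. In FPKM, Glyma11g15580.1 was highest in GmRAV1-ox replicate 2, at 44.3 against 42.5 in replicate 3. The same library lay apart from the other 5 on the second principal component, at -70.0, and its part in this pattern was not tested. Within DN50, replicate 2 was the lowest library for 7 of 7, with medians of -0.31 for the PRR95-like and -0.25 for the PRR73-like and PRR37-like genes.

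**Figure D2:**
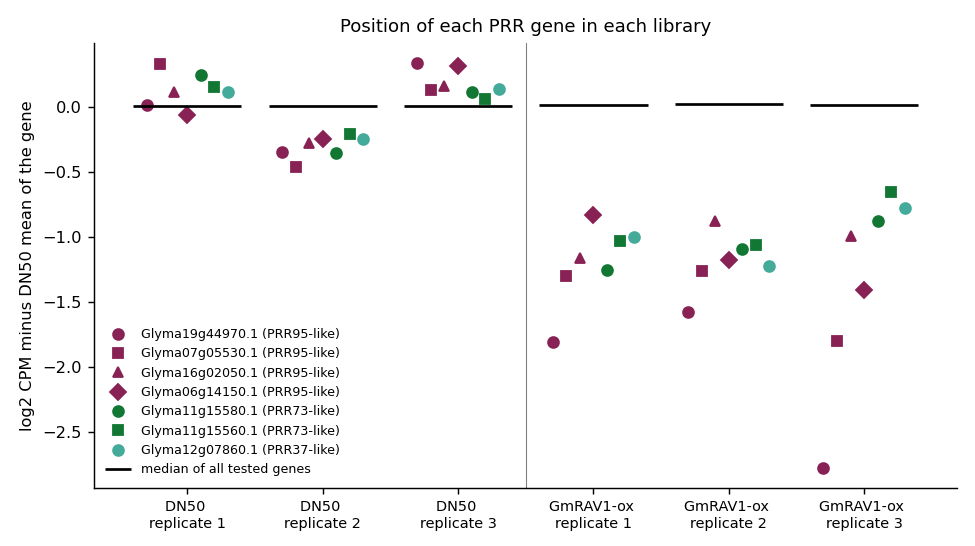
The log2 CPM of each PRR gene minus its DN50 mean, 1 point per gene in each of the 6 libraries, with the 4 PRR95-like genes marked apart from the 3 PRR73-like and PRR37-like genes. The 2 types overlap in GmRAV1-ox replicates 1 and 2, and in replicate 3 the PRR73-like and PRR37-like genes (-0.88 to -0.66) lie above the PRR95-like genes (-2.77 to -0.99).

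The 7 genes varied together from library to library. The Pearson correlation of log2 CPM over the 6 libraries was 0.97 to 0.99 for the 3 pairs among PRR73-like and PRR37-like genes, 0.91 to 0.97 for the 6 PRR95-like pairs, and 0.81 to 0.98 for the 12 mixed pairs. The first 3 pairs take in the 2 PRR73-like models (0.986), which may be parts of a single gene, so these pairs may not be separate. All these values describe 6 libraries that fall into the 2 groups on which the genes were chosen, and the group difference is part of each.

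Per length, the PRR73-like and PRR37-like genes were the more abundant of the 7 in DN50. Glyma11g15560.1 had 82.5 ± 10.4 FPKM, Glyma11g15580.1 had 77.5 ± 14.99, Glyma12g07860.1 had 72.1 ± 12.1 and Glyma06g14150.1 had 62.5 ± 17.2 (SD, n = 3). Then followed Glyma07g05530.1 with 38.0 ± 9.15, Glyma16g02050.1 with 25.5 ± 4.72 and Glyma19g44970.1 with 18.7 ± 5.51 FPKM. Among neighbours in this order, the DN50 libraries did not overlap between Glyma06g14150.1 and Glyma07g05530.1 alone, and the other 5 neighbouring pairs overlapped. Compared within each library, the first gene of a pair was higher in 3 of 3 DN50 libraries, except Glyma11g15580.1 over Glyma12g07860.1 (2 of 3). In GmRAV1-ox the means were 49.3, 41.0, 40.6, 32.1, 15.8, 14.3 and 5.31 FPKM in the same order, so the ranking by group mean was kept. Within single GmRAV1-ox libraries, Glyma11g15580.1 was above Glyma12g07860.1 in 1 of 3, and Glyma07g05530.1 above Glyma16g02050.1 in 2 of 3.

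The least abundant of the 4 also made up a smaller share of its type in GmRAV1-ox. Glyma19g44970.1 made up 12.1%, 12.6% and 13.7% of the summed PRR95-like FPKM of the 4 genes in DN50, and 7.79%, 9.67% and 5.25% in GmRAV1-ox. The PRR37-like gene Glyma12g07860.1 had 3.41 to 4.23 times its FPKM in DN50 and 5.09, 6.99 and 16.3 times in GmRAV1-ox, where the highest value is that of replicate 3. For Glyma07g05530.1 and Glyma16g02050.1 the FPKM ratio was 1.30 to 1.71 in DN50 and 0.841 to 1.34 in GmRAV1-ox, and these ranges overlap. Summed over the 7 genes, the 3 DN50 libraries held 371, 310 and 450 FPKM and the 3 GmRAV1-ox libraries 198, 208 and 189 FPKM. Both PRR73-like models enter these sums, so if they are parts of a single gene, it is counted more than once.

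The 2 PRR95-like genes left off the list bracket the 7 in level. Glyma04g40640.1, the most abundant, stood at 490, 489 and 597 CPM in DN50 and 339, 329 and 327 CPM in GmRAV1-ox. Its groups did not overlap, and its estimate was nearer to 0 than those of the 7, at a log2 fold change of -0.66 (95% interval -1.13 to -0.19, edgeR adjusted p = 0.139). Glyma04g40640.1 held 35.2% to 42.2% of the FPKM of all 9 genes in DN50 and 45.0% to 47.1% in GmRAV1-ox. The 9 genes take in both PRR73-like models, which may be parts of a single gene. Glyma03g42220.1, the least abundant, stood at 7.08, 6.26 and 10.3 CPM in DN50 and 3.21, 4.78 and 1.30 CPM in GmRAV1-ox. With a log2 fold change of -1.33 (-2.32 to -0.33, edgeR adjusted p = 0.152) it lay within the range of the 7, but its interval was wider. Like 3 of the listed PRR95-like genes, it was lowest in GmRAV1-ox replicate 3.

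Counting these 2, 13 other genes matched a PRR description, 12 were tested and 0 passed the edgeR threshold. Unadjusted, 4 stood lower and 1 higher with p under 0.05, against 2801 lower and 2785 higher of all 26272 tested genes. DESeq2 called 1 lower and 1 higher (1040 lower and 658 higher of all tested genes), and limma on FPKM called 0. The median log2 fold change of the 12 was -0.30. Without GmRAV1-ox replicate 3, 1 of the 12 was called lower and 1 higher (2672 lower and 2383 higher of all 27657 tested genes). Without DN50 replicate 2, 0 of the 12 were called. The APRR7-like genes, named for Arabidopsis PRR7, were nearer to 0 than the PRR73-like and PRR37-like genes. Glyma10g05520.1 had a log2 fold change of -0.38 (-0.78 to 0.02, edgeR adjusted p = 0.250) and Glyma13g19870.1 one of -0.06 (-0.41 to 0.29).

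Of 3 tested genes described as TOC1 or APRR1, which is another name for this evening member of the family, 1 stood higher with no overlap and 2 overlapped. Glyma06g21120.1, described as timing of CAB expression 1, was at 8.77, 12.2 and 11.5 CPM in DN50 and 24.1, 18.7 and 26.3 CPM in GmRAV1-ox, a log2 fold change of 1.08 (0.61 to 1.56). Its edgeR adjusted p was 0.0640, and it passed the threshold without GmRAV1-ox replicate 3 (adjusted p = 0.0176). The APRR1-like genes Glyma04g33110.1 and Glyma05g00880.1 were more abundant per length, at a mean of 34.2 and 83.2 FPKM over the 6 libraries against 10.9, and had log2 fold changes of 0.26 (-0.19 to 0.71) and -0.01 (-0.42 to 0.40). The APRR2-like genes, which lie outside the core clock family, ranged from -0.84 in Glyma17g16360.1 (edgeR adjusted p = 0.104, or 0.0455 without GmRAV1-ox replicate 3) through -0.80 in Glyma05g06070.1, -0.47 in Glyma11g04440.1 and -0.21 in Glyma07g33130.1 to 0.01 in Glyma01g40900.1. Another, Glyma17g20520.1, was too low to be tested.

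**Figure D3:**
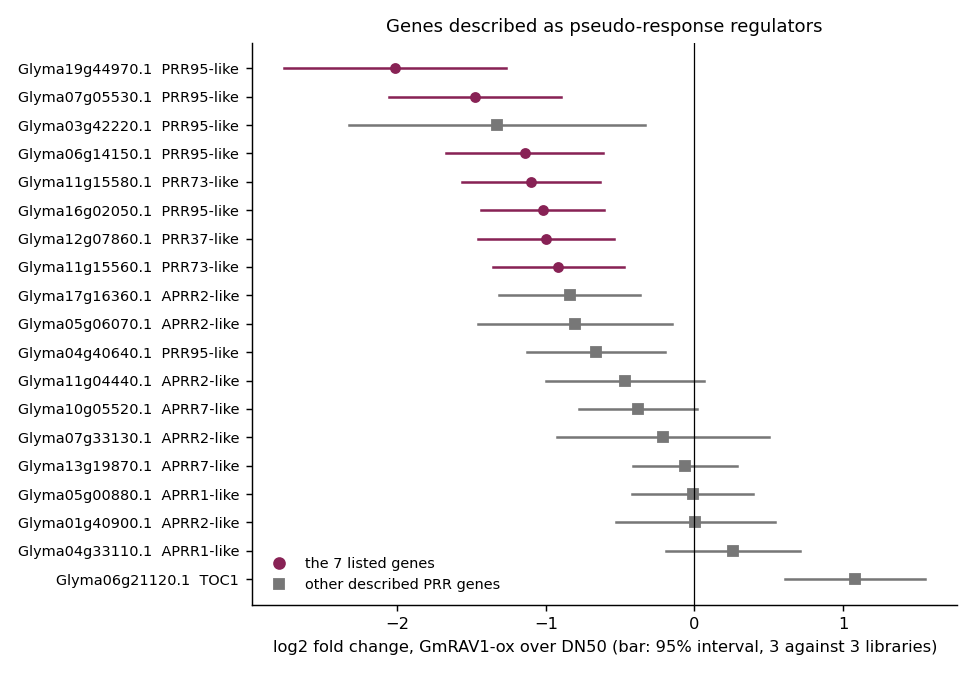
Log2 fold change (GmRAV1-ox over DN50) with its 95% interval, from 3 against 3 libraries, for the genes described as pseudo-response regulators. The 7 genes of the list lie between -2.02 and -0.92, and Glyma06g21120.1, 1 of 3 genes described as TOC1 or APRR1, is farthest above 0, at 1.08.

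Other parts of the clock were described from the same table, with 43 matched genes outside the list, of which 39 were tested. By edgeR 2 were higher and 2 were lower, or 4 of 39, where 0.7% of tested genes were called in either direction (32 higher and 152 lower, or 84 higher and 149 lower without library factors). The median log2 fold change of the 39 was -0.11. Leaving out GmRAV1-ox replicate 3 gave 9 calls, 3 higher and 6 lower, where 18.3% of tested genes were called. Leaving out DN50 replicate 1 or 3, or GmRAV1-ox replicate 1 or 2, gave 0 by edgeR. In those fits 12 to 14 of the 39 had an unadjusted p under 0.05, as did 3290 to 3888 of the 26789 to 27665 tested genes.

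The morning MYB genes, which bind PRR promoters in Arabidopsis and are repressed by PRR proteins there, had estimates below 0 throughout. The median log2 fold change of the 6 was -1.63, and 2 of the 6 fell past the edgeR threshold (0.579% of tested genes did). At an unadjusted p under 0.05, 5 were lower, as were 2801 of 26272 tested genes. DESeq2 called 5 lower (3.96% of tested genes) and limma 2 or 1 by pseudocount (121 or 89 of 26272). The edgeR fit called 5 without GmRAV1-ox replicate 3 (9.66% of tested genes) and 2 without DN50 replicate 2 (0.545%). The CCA1 gene Glyma09g29800.2 was at 36.2, 18.2 and 31.3 CPM in DN50 and 3.34, 3.71 and 7.22 CPM in GmRAV1-ox, with a log2 fold change of -2.59 (-3.45 to -1.73, edgeR adjusted p = 0.0383). The LHY gene Glyma19g45030.1 was at 17.9, 9.25 and 16.1 CPM in DN50 and 2.05, 1.91 and 3.75 CPM in GmRAV1-ox, with a log2 fold change of -2.49 (-3.32 to -1.66, edgeR adjusted p = 0.0363). As for the PRR73-like and PRR37-like genes, GmRAV1-ox replicate 3 was the highest of its group and DN50 replicate 2 the lowest of its group in both. The most abundant of the 6, Glyma16g01980.3, had a log2 fold change of -1.57 (edgeR adjusted p = 0.0998, or 0.00328 without GmRAV1-ox replicate 3).

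The evening complex, formed in Arabidopsis by ELF3, ELF4 and LUX, represses clock genes at night. Of its 18 matched genes 15 were tested, 2 rose and 0 fell, with a median log2 fold change of 0.32. The same counts came from DESeq2, both limma fits and edgeR without GmRAV1-ox replicate 3 or DN50 replicate 2. Of all 26272 tested genes, edgeR called 32 higher, DESeq2 658 and limma 64 or 35 by pseudocount. Without GmRAV1-ox replicate 3, edgeR called 2383 of 27657 tested genes higher, and without DN50 replicate 2, 46 of 27696. At an unadjusted edgeR p under 0.05, 0 evening complex genes were lower, against 2801 of 26272 tested genes. Both evening complex genes that rose are ELF4-like. Glyma11g35270.1 was at 27.4, 41.5 and 29.8 CPM in DN50 and 82.2, 70.0 and 89.4 CPM in GmRAV1-ox, a log2 fold change of 1.29 (0.81 to 1.77, edgeR adjusted p = 0.0460). Glyma18g03130.1 rose from 0.951 ± 0.175 to 6.61 ± 0.680 CPM, a log2 fold change of 2.78 (2.07 to 3.49, edgeR adjusted p = 0.0320). In DN50 it was near the floor, at 0.924, 1.14 and 0.792 CPM, and it passed the count filter through its GmRAV1-ox libraries. Other tested ELF4-like genes did not rise past the threshold. Glyma14g37280.1 overlapped between groups, with a log2 fold change of 0.34 (-0.21 to 0.90, edgeR adjusted p = 0.439). Glyma17g05860.1 was lower with no overlap, with a log2 fold change of -0.54 (-1.19 to 0.11, edgeR adjusted p = 0.309). The LUX-like gene Glyma11g14490.1 was at 37.1, 45.9 and 36.9 CPM in DN50 and 55.9, 42.7 and 125 CPM in GmRAV1-ox, with overlapping groups and an edgeR adjusted p of 0.237.

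The ZEITLUPE family of F-box proteins, blue-light receptors that target PRR proteins for degradation in Arabidopsis, showed 0 calls among 6 tested genes by edgeR (also without GmRAV1-ox replicate 3 or DN50 replicate 2), DESeq2 or limma. At an unadjusted p under 0.05, 2 were lower, as were 2801 of 26272 tested genes. The FKF1 gene Glyma05g34530.1 had a log2 fold change of -0.40 (edgeR adjusted p = 0.231) and the adagio 3-like gene Glyma08g05130.1 one of -0.55 (edgeR adjusted p = 0.154). No description matched REVEILLE, LNK or GIGANTEA, so these partners of the clock are not analysed here.

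Genes known from Arabidopsis to act downstream of PRR proteins or to work with them were matched in the same way. Of 12 cycling Dof factors, repressors of flowering genes, 5 were tested and 2 fell, where 0.579% of tested genes did. The median log2 fold change of the 5 was -1.29. DESeq2 called 3 lower (3.96% of tested genes) and limma 2 (121 or 89 of 26272 tested genes by pseudocount). The edgeR fit called 3 when GmRAV1-ox replicate 3 was left out (9.66% of tested genes) and 2 when DN50 replicate 2 was (0.545%). The 2 that fell by edgeR on all 6 libraries were named after their values were seen. Glyma05g00970.1 fell from 19.3 ± 2.75 to 3.97 ± 0.542 CPM (log2 fold change -2.28, edgeR adjusted p = 0.0203) and Glyma17g10920.1 from 9.26 ± 1.32 to 1.84 ± 0.285 CPM (-2.33, edgeR adjusted p = 0.0320). Of 9 tested phytochrome-interacting factors, growth regulators in light signalling, 0 passed by edgeR and 1 was called lower by DESeq2 (3.96% of tested genes). The median log2 fold change of the 9 was -0.87, and 5 were lower and 1 higher at an unadjusted p under 0.05. Of all 26272 tested genes, 2801 were lower and 2785 higher at that level. Without GmRAV1-ox replicate 3, edgeR called 3 lower and 1 higher of 10 tested (2672 lower and 2383 higher of all 27657 tested genes). Without DN50 replicate 2 it called 0. Of 7 genes matched as FT-like, the family of the flowering signal, 2 were tested and 0 called by edgeR, DESeq2 or limma (2 lower at an unadjusted p under 0.05). The 7 take in Glyma05g34030.1, described as mother of flowering locus T-like and not tested. Glyma16g26660.1 was at 0, 0.359 and 3.47 CPM in GmRAV1-ox, with a log2 fold change of -3.52 (-5.94 to -1.09, edgeR adjusted p = 0.139). Glyma18g53690.1 was at 0.513, 0.239 and 0.866 CPM there, with a log2 fold change of -2.11 (-3.27 to -0.95, edgeR adjusted p = 0.10). Their DN50 means were 14.1 and 2.33 CPM. Both were called lower when GmRAV1-ox replicate 3 was left out, where 9.66% of tested genes were, and neither when DN50 replicate 2 was. The 8 tested genes for TOPLESS proteins, corepressors that PRR proteins recruit in Arabidopsis, had log2 fold changes from -0.44 to 0.15, with 0 called by edgeR (also without either of those libraries), DESeq2 or limma and 1 lower at an unadjusted p under 0.05.

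**Figure D4:**
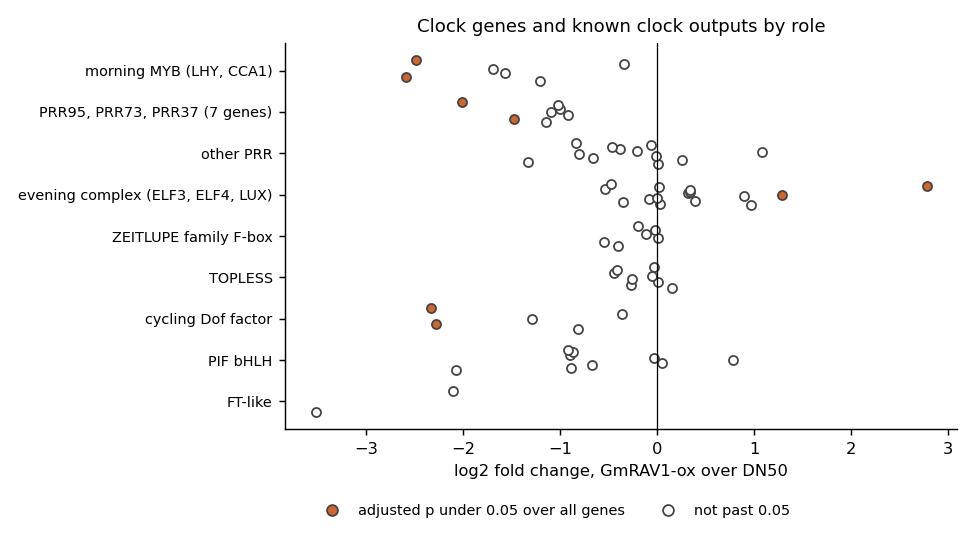
Log2 fold change (GmRAV1-ox over DN50), 1 point per tested gene (filled where the edgeR adjusted p was under 0.05), grouped by clock role and by known clock output. The 6 morning MYB genes and the 7 PRR genes of the list all lie below 0, and the evening complex genes spread from -0.54 to 2.78.

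The genes whose profile over the 6 libraries was most like that of the leading gene of each type were taken from 17159 tested genes with an informative description and at least 1 FPKM on average. For the PRR73-like gene Glyma11g15560.1 the nearest were the LHY gene Glyma19g45030.1 (Pearson r = 0.999 of log2 CPM) and the CCA1 gene Glyma09g29800.2 (0.998). Next came genes described as Mbb1-like (Glyma17g03680.1), a clathrin assembly protein (Glyma05g27070.1) and isopentenyltransferase 3 (Glyma19g33680.1), an enzyme of cytokinin synthesis, at 0.998, 0.998 and 0.997. For the PRR37-like gene Glyma12g07860.1 they were a RabGAP/TBC protein (Glyma17g12070.1), the chloroplast sigma factor sigE (Glyma13g08390.1), a lectin receptor kinase (Glyma13g37210.1), an anion transporter (Glyma13g23180.1) and a cellulose synthase-like protein (Glyma12g31810.1), at 0.997 to 0.998. For the PRR95-like gene Glyma06g14150.1 they were a synaptotagmin-5-like gene (Glyma08g04640.1), an RCD1-like gene (Glyma01g01900.2), an allantoate deiminase-like gene (Glyma09g05600.1), a glutamate receptor 3.7-like gene (Glyma13g38460.1) and a hydroxymethylglutaryl-CoA lyase gene (Glyma07g36340.1), at 0.994 to 0.997. With 6 libraries in 2 groups, the group difference is part of each of these values. An r above 0.95 was reached by 424 genes (2.47%) for the PRR73-like, 483 (2.81%) for the PRR37-like and 172 (1.00%) for the PRR95-like gene.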

How the data were processed

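Per the file headers, the authors deposited for each library an expected count, an FPKM and a length for every listed gene (all lengths are multiples of 3, hence coding lengths). The submitters' processing notes name TopHat and Cufflinks. Versions, genome build, annotation and use of strand: not given in the sources used here. Expected counts as deposited were rounded to whole numbers, since 29.6% to 30.5% of those above 0 were over 0.001 from a whole number, and unlisted genes were set to 0. The deposited FPKM values were used for levels between genes.

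In R 4.3.3, counts were filtered with filterByExpr, scaled with TMM (factors 0.849 to 1.17) and tested with the 2-sided robust quasi-likelihood F test of edgeR 4.0.16, adjusted by Benjamini-Hochberg over 26272 genes with a threshold of 0.05. Intervals are 95% intervals of the fitted log2 fold change. DESeq2 1.42.0 and limma 3.58.1 (log2(FPKM + 1) and log2(FPKM + 0.1)) were alternatives, beside other scaling, filters, a non-robust fit, a replicate block, each library left out and the PRR73-like models summed. The fits were tested on simulated data.

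The 7 genes and the gene lists, matched to deposited descriptions (66.0% of genes carry an informative one), were chosen with earlier results of these data known. Named by rule beside the 7 were all other PRR genes, called clock genes, the 2 of each clock role with the highest mean FPKM, and the 5 genes most like the leading gene of each type. The uncalled ELF4-like genes and the FT-like, cycling Dof and RAV genes were named outside this rule. The nodule pattern also takes in aquaporin-type and reductase genes.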

Additional observations from a re-analysis of the deposited data

How the results depend on the processing

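Of 99 log2 fold changes of the 7 PRR genes under the alternatives, 64 stayed on their side of the threshold, 16 lost the call and 19 gained it; their sign was fixed by how the genes were chosen. The edgeR fit called 184 genes, 2 of the 7 PRR genes and 4 of the 39 other clock genes. DESeq2 called 1698 genes, 7 PRR genes and 9 clock genes. Dropping the count filter gave 293 genes (231 lower) of 36796 tested, and 4 PRR genes. No scaling factors and both limma fits on FPKM gave 0 PRR genes, and the fit without robust estimation gave 1. Of 26272 tested genes, 149 were called lower without scaling factors, 121 or 89 by limma and 125 without robust estimation. In the fits with 0, each of the 7 had an unadjusted p under 0.05, as did 6139, 6029 and 5961 of 26272 tested genes in turn. Without scaling factors the median log2 fold change of all tested genes moved from 0.01 to 0.20, and in limma on FPKM to 0.17 and 0.19. With 1 library left out, 0 to 5055 genes, 0 to 7 PRR genes and 0 to 9 clock genes were called. The 5055 came without GmRAV1-ox replicate 3, and 184 of the 184 genes were among them. With the replicate block, edgeR called 1621 genes (682 higher and 939 lower of 26272 tested), 7 PRR genes and 8 clock genes. Same-numbered libraries deviated together with r = -0.30, 0.40 and 0.30 for numbers 1, 2 and 3, so the numbers were not taken to pair the samples. The cause of these movements was not tested.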
